A study of Homo sapiens with 6 samples.

Results

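The replication-dependent histone genes are the clustered genes that encode the bulk of the H1, H2A, H2B, H3 and H4 proteins. They were taken as the rows of the deposited table whose symbol starts with HIST1H, HIST2H, HIST3H or HIST4H, which gave 73 of 25268 gene symbols (6 H1, 18 H2A, 20 H2B, 14 H3 and 15 H4). RNA was sequenced from A673, an Ewing sarcoma cell line driven by the EWSR1-FLI1 fusion, harvested 72 h after transfection. The transfected esiRNA is a pool of short interfering RNAs cut from long double-stranded RNA. The esiFLI1 cells received esiRNA against FLI1, whose 3′ part belongs to the fusion, the esiUSP9X cells received esiRNA against the deubiquitinase USP9X, and the esiGFP cells received a non-targeting control esiRNA. Each group had 2 libraries, all from the same line and time point, and no label says that they were separate cultures, so the p-values rest on a spread that may be technical. Levels are given in FPKM, which divides a gene's fragments by transcript length and by the mapped fragments of the library, as the authors deposited them.

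Histone proteins package DNA into nucleosomes: H2A, H2B, H3 and H4 form the core around which DNA is wound, and H1 binds the DNA between cores. Replication-dependent histone genes are transcribed mainly in S phase, and their mRNA normally ends after a short stem-loop, bound by SLBP, in place of a poly(A) tail. Some of these genes are also known to give longer, polyadenylated transcripts in differentiated or non-dividing cells. Their promoters often pair an H2A gene with an H2B gene that is read in the opposite direction.

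The promoters of the genes the results turn on are shown first, each as the 150 bases before the annotated start, read on the strand of the gene, from RefSeq on GRCh38.p14, while the submitters' processing notes name hg19 and GRCh37. Capitals mark the octamer ATTTGCAT, the TATA letters TATAAA and the CCAAT box, or the complement of one of these read on the other strand. The first 4 promoters belong to H2B genes that were higher in the esiFLI1 libraries, the fifth to the H4 gene with the largest values, and the sixth to the H2A gene that was lower in them. The seventh lies opposite HIST1H2BC and holds the same octamer read from the other strand.
HIST1H2BC (RefSeq H2BC4, chr6:26123927-26124076, minus strand): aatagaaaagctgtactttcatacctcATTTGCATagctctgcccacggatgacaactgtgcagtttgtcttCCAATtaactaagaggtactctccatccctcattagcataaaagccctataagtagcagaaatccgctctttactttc
HIST1H2BD (RefSeq H2BC5, chr6:26157971-26158120, plus strand): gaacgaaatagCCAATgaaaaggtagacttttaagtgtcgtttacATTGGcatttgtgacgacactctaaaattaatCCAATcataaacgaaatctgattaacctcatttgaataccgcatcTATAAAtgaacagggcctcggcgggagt
HIST2H2BE (RefSeq H2BC21, chr1:149886683-149886832, minus strand): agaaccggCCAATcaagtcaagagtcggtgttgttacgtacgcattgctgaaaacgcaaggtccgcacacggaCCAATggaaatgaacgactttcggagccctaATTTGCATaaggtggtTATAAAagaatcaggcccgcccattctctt
HIST1H2BK (RefSeq H2BC12, chr6:27146859-27147008, minus strand): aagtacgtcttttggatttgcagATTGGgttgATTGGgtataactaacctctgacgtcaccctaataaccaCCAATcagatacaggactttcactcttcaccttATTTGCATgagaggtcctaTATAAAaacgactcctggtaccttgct
HIST1H4H (RefSeq H4C8, chr6:26285535-26285684, minus strand): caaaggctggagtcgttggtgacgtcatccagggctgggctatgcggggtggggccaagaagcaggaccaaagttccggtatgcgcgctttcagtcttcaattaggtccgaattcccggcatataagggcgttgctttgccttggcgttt
HIST3H2A (RefSeq H2AC25, chr1:228457874-228458023, minus strand): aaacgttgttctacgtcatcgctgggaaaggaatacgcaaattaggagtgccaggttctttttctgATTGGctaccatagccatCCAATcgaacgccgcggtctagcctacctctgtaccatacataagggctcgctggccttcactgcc
HIST1H2AC (RefSeq H2AC6, chr6:26124022-26124171, plus strand): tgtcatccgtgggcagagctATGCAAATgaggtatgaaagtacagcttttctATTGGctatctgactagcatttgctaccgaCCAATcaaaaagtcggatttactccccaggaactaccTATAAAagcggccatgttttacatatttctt

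A promoter was found for 65 of the 73 genes, and the 250 bases before each start were searched on both strands. The octamer, a known binding sequence of POU2F1, stood in 14 of 18 H2B promoters, 11 of 16 H2A promoters and 1 of 12 H3 promoters, and in none of the 6 H1 and 13 H4 promoters. The H3 match, of HIST1H3D, is not a separate one, since its window is the same as that of HIST1H2AD. It stood in 1.63% of all 35116 promoters of the table. In 13 H2B promoters it was read on the gene's own strand, starting between 45 and 123 bases before the start, with a median of 49 bases. TATAAA stood in 66.2% of the histone promoters and in 10.7% of all promoters. CCAAT stood in 84.6% of the histone promoters, in all of the H1, H2A, H2B and H3 promoters but in 3 of 13 H4 promoters, and in 32.0% of all promoters. No match of 1 motif overlapped a match of another in the histone promoters. A match is a run of letters and does not show that a factor binds.

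The stem-loop that ends histone mRNA was searched by its known consensus in GENCODE v29 transcripts (GRCh38). It was found for 32 of the 73 genes, in 5 forms of 16 bases, where the capitals below mark the 2 arms of the stem and the small letters the loop. They are shown because 2 of the forms were found only in H4 genes and because the transcript went on after the stem-loop in many of the genes described below.
Form of 17 genes, among them HIST1H2AC, HIST1H2BG, HIST1H2BH, HIST2H2BE and HIST3H2A: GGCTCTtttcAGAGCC
Form of 5 genes, among them HIST1H2BC and HIST1H2BD: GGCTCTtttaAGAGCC
Form of 5 H4 genes, among them HIST1H4E and HIST1H4H: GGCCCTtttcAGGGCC
Form of 3 H4 genes, HIST1H4I, HIST2H4A and HIST2H4B: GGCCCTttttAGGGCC
Form of HIST1H2AG and HIST2H2BC: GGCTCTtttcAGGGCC

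For 23 of these 32 genes an annotated transcript ran at least 100 bases past the stem-loop, as the longer transcripts do. The longest such run was 1729 bases for HIST2H2BE, 1655 for HIST1H4H, 1128 for HIST1H2AC and 116 for HIST1H2BC. In HIST1H2BD the annotated transcript with the stem-loop ended 39 bases after it. No stem-loop match was found in the annotated transcripts of HIST1H2BK, HIST1H2BJ, HIST1H2BO, HIST1H1C or HIST2H2AC, which says only that these letters are not in those transcripts.

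Histone genes resemble each other closely, and the reads were 75 bases long. The share of a gene's 75-base transcript windows that also occur in another gene was therefore counted, again in GENCODE v29. It was at least 90% for 9 genes, and 7 of these (HIST1H4K, HIST2H2AA3, HIST2H2AA4, HIST2H3A, HIST2H3C, HIST2H4A and HIST2H4B) were listed at 0 in all 6 libraries. In all, 14 genes were listed at 0 in every library. A value of 0 in such a table cannot be read as absence, and how the authors' counting treated reads that fit several genes is not given in the sources used here. Of the genes described below, HIST1H2AI (60.1%), HIST1H2BK (50.5%) and HIST2H2AC (23.7%) shared at least 10% of their windows, so their single values are uncertain. HIST1H2AI shared its windows with HIST1H2AJ, HIST2H2AC with HIST2H2AA3 and HIST2H2AA4, and HIST1H2BK with H2BFS and several HIST1H2B genes. The other 17 genes that passed the filter shared under 10%. These shares cover unlike stretches: the annotated transcript has 381 bases for HIST1H2BK and 390 for HIST2H2AC, but 2194 for HIST2H2BE.

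**Figure D1:**
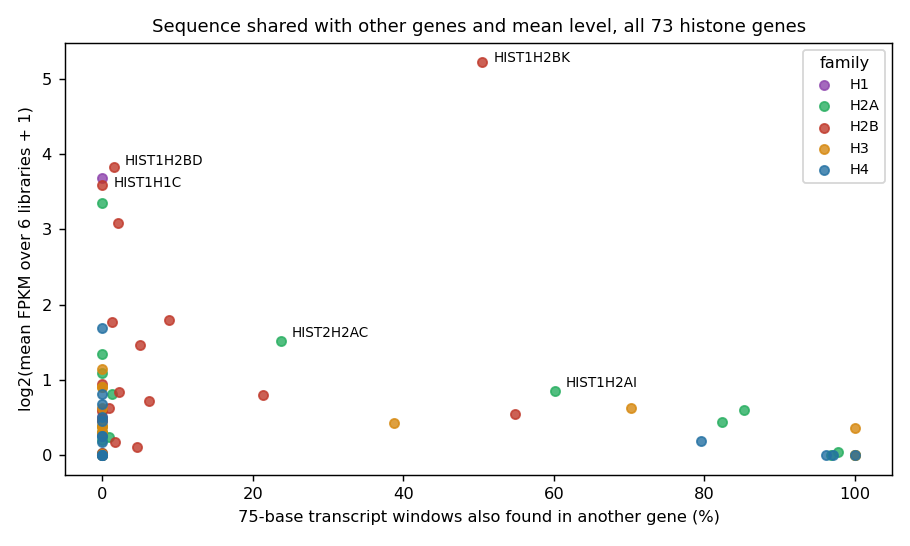
Each point is 1 of the 73 histone genes, coloured by family, with the percentage of its 75-base transcript windows found in another gene on the x axis and log2(mean FPKM over 6 libraries + 1) on the y axis. HIST1H2BK stood highest although 50.5% of its windows were shared, and the genes near the right edge lay at or near 0.

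Fold changes were computed only for genes of at least 1 FPKM in 2 libraries, which 20 of the 73 histone genes reached (1 of 6 H1, 6 of 18 H2A, 10 of 20 H2B, 1 of 14 H3 and 2 of 15 H4). Another 39 were above 0 in some library but under the filter. By chromosome cluster, 16 of 56 HIST1 genes, 3 of 13 HIST2 genes, 1 of 3 HIST3 genes and 0 of 1 HIST4 genes passed. HIST1H2AG and HIST1H2BG reached 1 FPKM only in the esiFLI1 libraries, so they passed through the group in which they were high. Just inside the filter, with 2 libraries at 1 FPKM, were HIST1H2AG, HIST1H2AI, HIST1H2BG, HIST1H2BO and HIST1H4E. Just outside, with 1 library at 1 FPKM, were 10 genes, among them HIST1H3E, the highest at 3.15 FPKM in esiFLI1 replicate 1 and at most 0.882 FPKM in the other libraries. The 20 genes held 89.5% of the FPKM summed over all histone genes.

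H2B genes held most of the FPKM listed for histone genes. Over all 73 genes the summed level was 163 and 114 FPKM in the esiFLI1 libraries, 138 and 100 FPKM in the esiUSP9X libraries, and 124 and 88.4 FPKM in the esiGFP libraries. The H2B genes held 66.3% of that sum on average over the libraries, the H2A genes 14.1%, the H1 genes 10.7%, the H3 genes 4.73% and the H4 genes 4.15%. A nucleosome core needs H2A, H2B, H3 and H4 in equal numbers, so these FPKM shares do not follow the protein ratio. The 7 genes listed at 0 with at least 90% shared windows are 2 H2A, 2 H3 and 3 H4 genes and no H2B gene, so the listed shares of the H2A, H3 and H4 families may be too low.

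The H2B sum was 109 and 81.4 FPKM in esiFLI1, 85.9 and 65.9 in esiUSP9X, and 76.2 and 63.9 in esiGFP. Both esiFLI1 libraries lay above both esiGFP libraries, by 1.43 times between the libraries numbered 1 and by 1.27 times between those numbered 2. The H4 sum was 6.27 and 5.77 FPKM in esiFLI1, 6.13 and 4.12 in esiUSP9X, and 4.54 and 3.34 in esiGFP. The esiFLI1 libraries again lay above the esiGFP libraries without overlap, by 1.38 and 1.73 times between libraries of the same number. These sums include genes under the filter: those past it held 96.0% of the H2B sum but 59.4% of the H4 sum. HIST1H4H alone held 44.3% of the H4 sum. HIST1H4E, the other H4 gene past the filter, had 0.363 and 0.789 FPKM in esiFLI1 and 0.623 and 1.09 FPKM in esiGFP.

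For the other families the groups overlapped, although each esiFLI1 library lay above the esiGFP library of the same number. The H1 sum was 15.4 and 9.99 FPKM in esiFLI1, 18.2 and 11.9 in esiUSP9X, and 13.7 and 8.92 in esiGFP. The H2A sum was 23.5 and 13.1 FPKM in esiFLI1, 20.2 and 14.5 in esiUSP9X, and 22.1 and 9.10 in esiGFP. The H3 sum was 8.66 and 3.96 FPKM in esiFLI1, 7.76 and 3.95 in esiUSP9X, and 7.03 and 3.07 in esiGFP. Between libraries numbered 1 and between those numbered 2, esiFLI1 was 1.13 and 1.12 times esiGFP for H1, 1.07 and 1.44 times for H2A, and 1.23 and 1.29 times for H3. For esiUSP9X the same ratios to esiGFP were 1.33 and 1.33 for H1, 0.913 and 1.59 for H2A, 1.13 and 1.03 for H2B, 1.10 and 1.29 for H3, and 1.35 and 1.23 for H4. Genes past the filter held 91.0% of the H1 sum, 89.4% of the H2A sum and 21.2% of the H3 sum, so the H3 ratios rest mostly on genes under it. Among these, HIST1H3E had 3.15 FPKM in esiFLI1 replicate 1 and 0.456 FPKM in esiGFP replicate 1. HIST1H3H, the only H3 gene past the filter, had 1.44 and 1.98 FPKM in the same 2 libraries. In every group and family the library numbered 1 was the higher of the pair. Family sums were not tested.

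**Figure D2:**
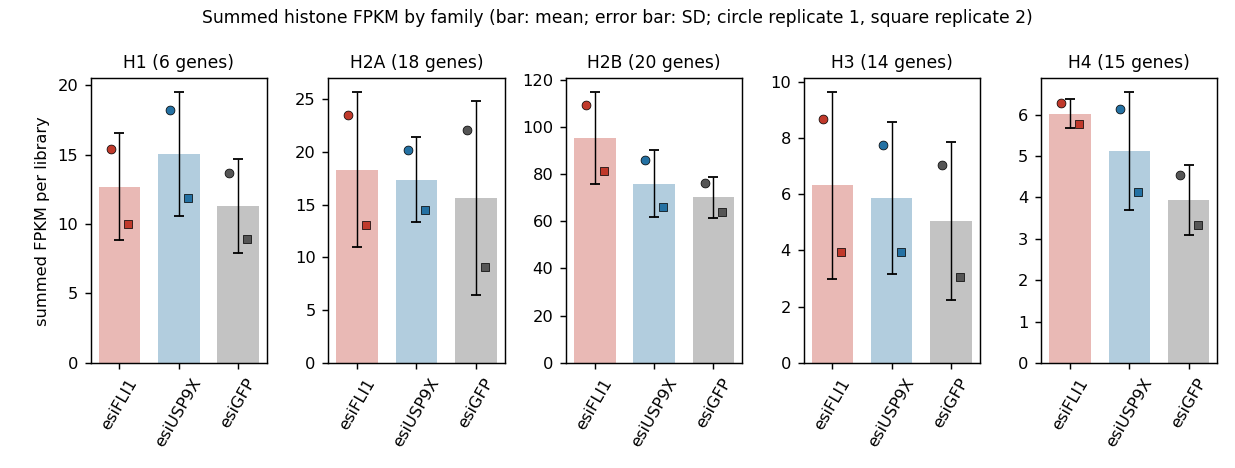
Summed FPKM of all genes of a family in each library (y axis, FPKM), with the groups esiFLI1, esiUSP9X and esiGFP along the x axis. Bars are means over 2 libraries, error bars are SD, circles are replicate 1 and squares replicate 2, and only the H2B and H4 panels show both esiFLI1 points above both esiGFP points.

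A single gene led most families. HIST1H2BK made up 45.2% of the H2B sum, HIST1H2AC 53.9% of the H2A sum, HIST1H1C 91.0% of the H1 sum and HIST1H4H 44.3% of the H4 sum. The H3 family had no such gene: HIST1H3H, its only gene past the filter, held 21.2% of the H3 sum. In order of mean FPKM over the 6 libraries, HIST1H2BK (36.3), HIST1H2BD (13.2), HIST1H1C (11.8), HIST1H2BH (11.1), HIST1H2AC (9.20) and HIST1H2BC (7.49) came first, and the 5 after HIST1H2BK overlapped their neighbours in the range of their libraries. Only 8 histone genes reached 1 FPKM in all 6 libraries, namely these 6, HIST1H2AE and HIST1H2BJ.

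**Figure D3:**
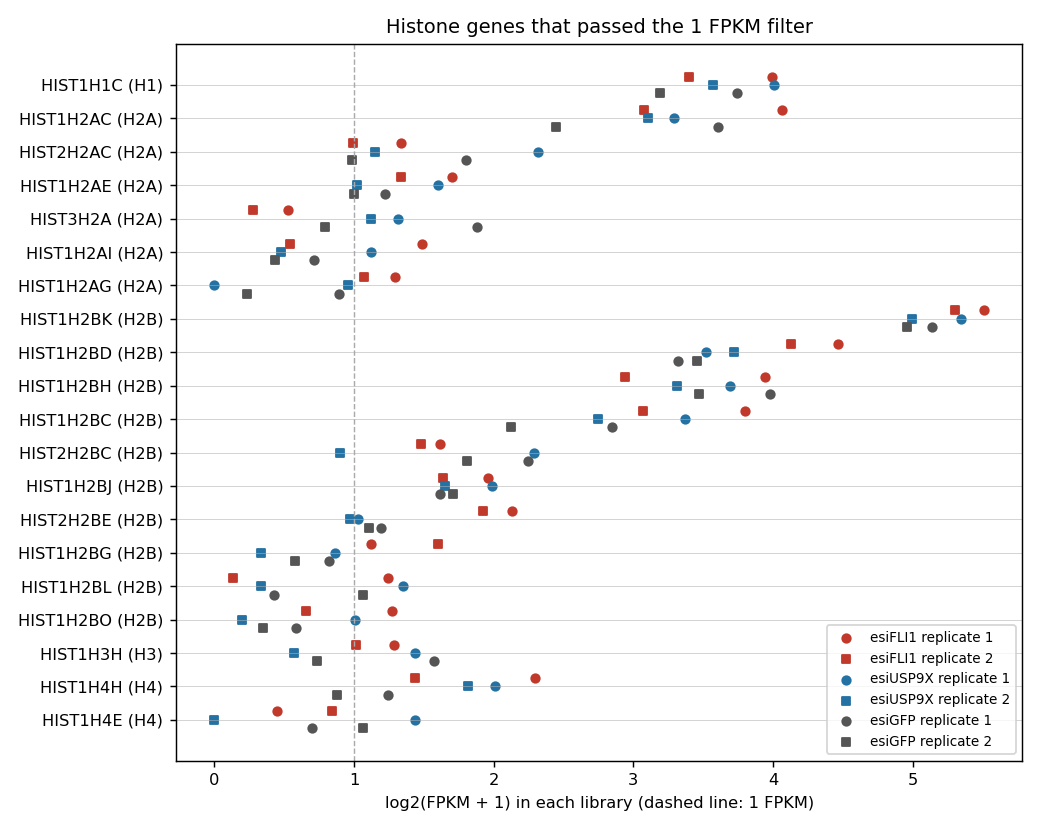
Log2(FPKM + 1) of the 20 histone genes that passed the filter, ordered by family and mean level, in each of the 6 libraries (red esiFLI1, blue esiUSP9X, grey esiGFP, circle replicate 1, square replicate 2). HIST2H2BE and HIST1H2BD show both red points to the right of all others, and many genes lie close to the dashed line at 1 FPKM.

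Library sums ranged from 781732 to 907926 FPKM, and read depth is unknown, so no counting interval was computed. The targeted genes bore out the labels: FLI1 RNA was 12.7 and 14.1 FPKM in esiFLI1 and 24.1 and 36.4 FPKM in esiGFP, and USP9X RNA was 5.31 and 7.10 FPKM in esiUSP9X and 20.6 and 26.5 FPKM in esiGFP. Of 8 Ewing sarcoma markers 7 passed the filter, while CD99 was listed at 0 in all libraries. Markers of endothelium (1 of 6 past the filter, summed level 0.270 to 3.64 FPKM) were low. So were those of epithelium (0 of 6, with CDH1, KRT5 and KRT14 at 0). Those of leukocytes and erythroid cells (1 of 6, with CD3E and HBB at 0) were low too. The 2 genes that passed, KDR and CD68, lay higher in esiFLI1 (KDR 1.30 and 1.33 FPKM, CD68 7.59 and 4.49 FPKM) than in esiGFP (KDR 0.106 and 0.0885 FPKM, CD68 3.77 and 2.73 FPKM), and the part of such cells in the histone values was not tested. In bulk RNA, a different share of cells in S phase and a different amount of histone RNA per cell cannot be told apart.

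With FLI1 knocked down, RNA of 5 H2B genes, HIST1H2AE and HIST1H4H was higher and RNA of HIST3H2A was lower, each called only when replicate number was in the model. HIST1H2BG was called higher too, but it entered the test through the esiFLI1 libraries alone. Each gene was tested with limma on log2(FPKM + 1), over the 12169 genes past the filter, and called at a Benjamini-Hochberg adjusted p under 0.05. Without a block, 0 of the 20 histone genes were called, against 2.81% of all genes. In that fit 2 of them (HIST2H2BE and HIST1H2BD) had an unadjusted p under 0.05, against 1923 of all 12169 genes. FLI1 itself, at -1.09 ± 0.27 on the log2 scale, was not called in that fit either (adjusted p = 0.13). It was called with the block (adjusted p = 4.4e-04). With the replicate number as a block, 9 of 20 were called (45.0%, against 42.1% of all genes). The share called was thus near that of all genes. Of the 9 calls, 8 were higher (20.6% of all genes) and 1 was lower (21.6% of all genes). Leaving out the genes that reached 1 FPKM in a single group, HIST1H2AG and HIST1H2BG among them, left 18 histone genes. Of these, 8 were called, 7 higher and 1 lower, against 18.8% higher and 22.1% lower of the 11867 genes left. These calls still include HIST1H2BO, with no esiGFP library at 1 FPKM, and HIST3H2A, with no esiFLI1 library at 1 FPKM. Both thus passed the filter without the group in which they were lower. Leaving out a library moved the blocked count to between 4 (without esiFLI1 replicate 2) and 12 (without either esiUSP9X library), with 5 calls without esiFLI1 replicate 1. The shares of all genes called in those fits are not given here. The libraries did not overlap in 9 genes that were higher (19.8% of all genes) and 2 that were lower (17.3% of all genes), or 7 and 2 of the 18 genes (17.9% and 17.7% of the genes left).

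The median log2 change of the 20 genes was 0.38, with 13 above 0, against -0.03 over all genes. It was 0.43 for the 10 H2B genes, 0.42 for the 6 H2A genes and 0.28 for the 2 H4 genes, while the single H1 gene changed by 0.23 and the single H3 gene by -0.01. Without HIST1H2AG and HIST1H2BG it was 0.29 for the 18 genes, with 11 above 0, 0.36 for the H2B genes and 0.41 for the H2A genes. No test was made over the families. Without esiFLI1 replicate 1 the median of the 20 genes was 0.01. With no filter, which adds the 39 histone genes above 0 but under it, the median was -0.01.

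Among the H2B genes, HIST1H2BC had 12.9 and 7.39 FPKM in esiFLI1 and 6.21 and 3.36 FPKM in esiGFP. Its change was 0.95 ± 0.41 on the log2 scale (SE; adjusted p = 0.36 without a block), nearly the same between the libraries numbered 1 (0.95) and those numbered 2 (0.94), and the blocked fit called it (SE 0.10, adjusted p = 3.9e-04). HIST1H2BD had 21.1 and 16.5 FPKM in esiFLI1 and 9.0 and 9.98 FPKM in esiGFP. Both genes encode nearly the same H2B protein, which pairs with H2A in the nucleosome core.

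The change of HIST1H2BD was 0.91 ± 0.21 (adjusted p = 0.12 without a block and 0.0021 with it). HIST2H2BE, from the HIST2 cluster, had 3.37 and 2.80 FPKM in esiFLI1 and 1.29 and 1.15 FPKM in esiGFP. Its change was 0.88 ± 0.16 (adjusted p = 0.062 without a block and 0.0010 with it). In these 3 genes both esiFLI1 libraries lay above both esiGFP libraries, and the blocked call held under all 9 alternatives tried, with adjusted p-values of at most 0.013 for HIST1H2BC, 0.020 for HIST1H2BD and 0.021 for HIST2H2BE. Of these alternatives 6 leave out a library and have 1 residual degree of freedom, so the spread comes largely from the prior shared by all genes, entirely so in the 2 without an esiGFP library, and a lone library is taken to vary like the other groups.

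HIST1H2BK, the most abundant histone gene of the table, had 44.6 and 38.5 FPKM in esiFLI1 and 34.2 and 30.1 FPKM in esiGFP. Its change was smaller, 0.36 ± 0.21 (adjusted p = 0.52 without a block and 0.021 with it), and the blocked call ended when any 1 of the esiFLI1 or esiGFP libraries was left out (adjusted p from 0.063 to 0.17), while the change itself ran from 0.31 to 0.41. HIST1H2BG had 1.17 and 2.03 FPKM in esiFLI1 and 0.764 and 0.489 FPKM in esiGFP, with a change of 0.66 ± 0.27. HIST1H2BO had 1.41 and 0.576 FPKM in esiFLI1 and 0.501 and 0.275 FPKM in esiGFP, with a change of 0.49 ± 0.34.

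Both genes lay near the filter, which HIST1H2BG passed only through the esiFLI1 libraries, and their blocked adjusted p-values were 0.046 and 0.043 (0.33 and 0.61 without a block). The HIST1H2BG call ended without esiFLI1 replicate 2 (a change of 0.23, adjusted p = 0.38) and with median-of-ratios scaling (0.66, adjusted p = 0.052), and its change was 1.10 without esiFLI1 replicate 1. The HIST1H2BO call ended without esiFLI1 replicate 1 (a change of 0.45, adjusted p = 0.21), esiFLI1 replicate 2 (0.54, 0.16) or esiGFP replicate 1 (0.26, 0.36), and its change was 0.73 without esiGFP replicate 2. A pseudocount of 0.1 FPKM gave larger changes, 1.21 for HIST1H2BG and 1.09 for HIST1H2BO, yet neither was called (adjusted p = 0.070 and 0.062). Quantile normalization gave changes of 0.44 and 0.23, and neither was called (adjusted p = 0.15 and 0.34). The other 4 H2B genes were called in neither fit. HIST1H2BH, the third most abundant H2B gene, had 14.4 and 6.68 FPKM in esiFLI1 and 14.8 and 10.1 FPKM in esiGFP, and the changes of HIST1H2BH, HIST1H2BJ, HIST1H2BL and HIST2H2BC (a pseudogene in GENCODE) ran from -0.48 to 0.13.

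The H2A genes were divided. HIST1H2AC, the most abundant of them, had 15.7 and 7.43 FPKM in esiFLI1 and 11.2 and 4.46 FPKM in esiGFP, so the groups overlapped. Its change was 0.54 ± 0.50 (adjusted p = 0.72 without a block and 0.074 with it), and no call was made. HIST1H2AE had 2.25 and 1.52 FPKM in esiFLI1 and 1.33 and 1.0 FPKM in esiGFP, without overlap. Its change of 0.41 ± 0.26 was called with the block only (adjusted p = 0.042, against 0.58 without it), and that call ended without either esiFLI1 library (0.14 and 0.18), without esiGFP replicate 1 (0.29) and under quantile normalization (0.39).

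HIST3H2A, the H2A gene of the small HIST3 cluster, was the only histone gene called lower. It had 0.442 and 0.211 FPKM in esiFLI1 and 2.69 and 0.729 FPKM in esiGFP, so its esiFLI1 values lay under the 1 FPKM of the filter and below both esiGFP values. The change was -0.94 ± 0.38 (adjusted p = 0.33 without a block and 0.011 with it), but -1.36 between the libraries numbered 1 and -0.51 between those numbered 2. Without either esiFLI1 library the blocked call ended (0.14 and 0.066). HIST2H2AC had 1.52 and 0.991 FPKM in esiFLI1 and 2.48 and 0.984 FPKM in esiGFP, with a change of -0.23 ± 0.47 that was called in neither fit (blocked adjusted p = 0.36).

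In the remaining families, HIST1H4H stood out. It had 3.91 and 1.70 FPKM in esiFLI1 and 1.37 and 0.840 FPKM in esiGFP, without overlap, and its change was 0.80 ± 0.33 (adjusted p = 0.34 without a block and 0.0073 with it). The blocked call was lost without esiFLI1 replicate 1 (0.059). HIST1H4E, which encodes the same H4 protein, had 0.363 and 0.789 FPKM in esiFLI1 and 0.623 and 1.09 FPKM in esiGFP, with a change of -0.24 ± 0.49. HIST1H1C, a linker histone gene, had 14.9 and 9.55 FPKM in esiFLI1 and 12.4 and 8.11 FPKM in esiGFP, with a change of 0.23 ± 0.33 (adjusted p = 0.84 without a block and 0.10 with it). HIST1H3H had 1.44 and 1.02 FPKM in esiFLI1 and 1.98 and 0.667 FPKM in esiGFP, with a change of -0.01 ± 0.41.

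**Figure D4:**
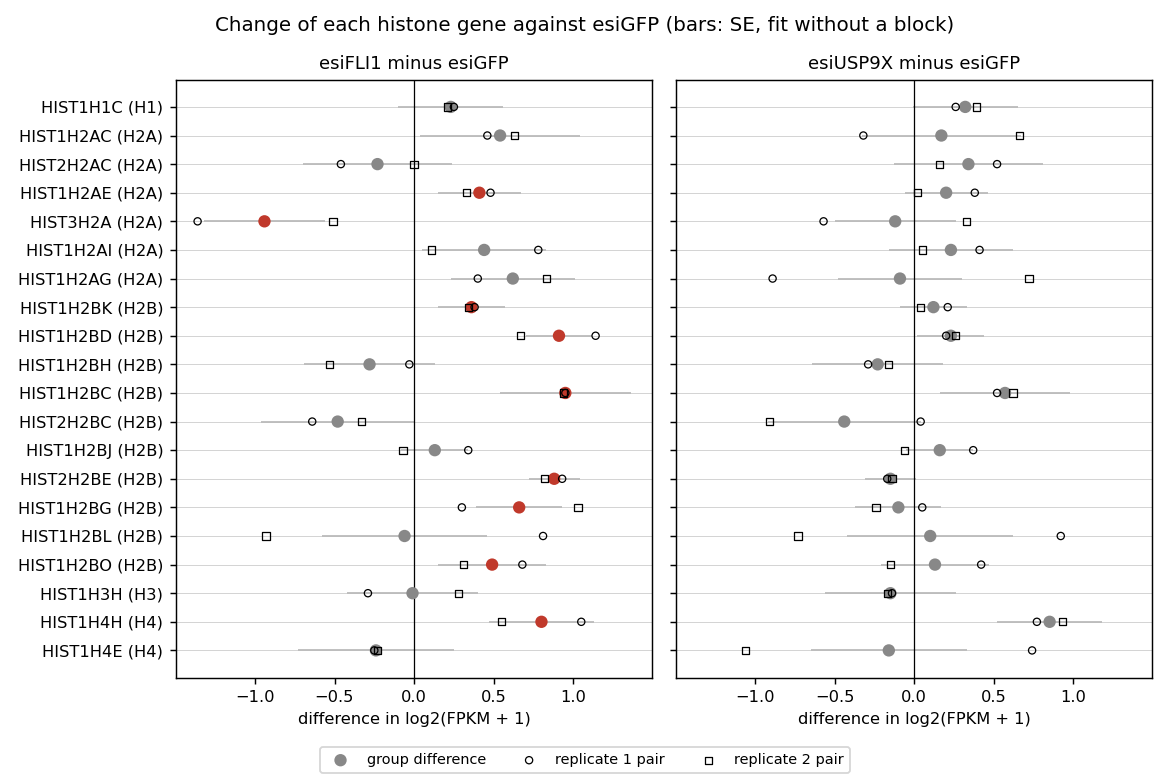
Difference in log2(FPKM + 1) for each of the 20 histone genes, esiFLI1 minus esiGFP on the left and esiUSP9X minus esiGFP on the right. Large points are group differences with SE bars from the fit without a block, open circles and squares are the differences between libraries of the same replicate number, and red marks the 9 genes called with the block. The red points of HIST1H2BC, HIST1H2BD, HIST2H2BE and HIST1H4H lie between 0.80 and 0.95, and HIST3H2A lies at -0.94.

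Several histone genes lie head to head and share a promoter region. The promoter windows overlapped head to head in 12 pairs, 11 of them an H2A gene with an H2B gene, and both genes of 5 such pairs passed the filter. The remaining pair, HIST1H3D with HIST1H2BF, repeats the pair of HIST1H2AD with HIST1H2BF, since HIST1H3D and HIST1H2AD have the same window. In HIST1H2BC and HIST1H2AC, whose windows share 255 bases, the esiFLI1 change was 0.95 and 0.54. In HIST1H2BG and HIST1H2AE (268 bases) it was 0.66 and 0.41, in HIST1H2BJ and HIST1H2AG (253 bases) 0.13 and 0.62, and in HIST1H2BL and HIST1H2AI (257 bases) -0.06 and 0.44. HIST2H2BE and HIST2H2AC share 265 bases, and their changes were 0.88 and -0.23. HIST1H2BG and HIST1H2AG passed the filter only through the esiFLI1 libraries, which favours a higher value there. The difference within a pair was not tested. Of the H2B genes with blocked calls, HIST1H2BC, HIST2H2BE, HIST1H2BK and HIST1H2BG hold the octamer on their own strand, as the printed promoters of the first 3 show. HIST1H2BO holds it on the other strand, 149 bases before the start, and HIST1H2BD does not hold it. Of the H2B genes not called, HIST1H2BH and HIST1H2BJ hold it on their own strand, and HIST1H2BL does not hold it. In all, 7 of the 9 promoters found for H2B genes past the filter hold it. HIST1H4H holds none of the 3 motifs.

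A list of 6 histone genes known to give polyadenylated RNA in differentiated cells (HIST1H1C, HIST1H2AC, HIST1H2BC, HIST1H2BD, HIST1H2BK and HIST2H2BE) was set beside the other 14 past the filter. All 6 passed the filter, and their summed level was 113 and 82.1 FPKM in esiFLI1, 84.3 and 68.3 in esiUSP9X, and 74.3 and 57.2 in esiGFP. The esiFLI1 sums did not overlap the esiGFP sums. Their median change with esiFLI1 was 0.71, and 4 of the 6 were called higher and 0 lower with the block (20.6% and 21.6% of all genes), while 0 were called without it. Of the other 14 genes 4 were also called higher and 1 lower with the block, with a median of 0.06. The difference between the 6 and the 14 was not tested, and the sets differ in level. Of the 6, HIST2H2BE had a mean of 1.77 FPKM and the rest 7.49 to 36.3 FPKM. Of the 14, HIST1H2BH had 11.1 FPKM and the rest at most 2.47 FPKM, and the scale understates changes near 1 FPKM. Outside the list, annotated transcripts also ran past the stem-loop, by 1655 bases in HIST1H4H and 1640 in HIST1H2BH. The list was chosen with earlier results of these data known. Libraries were made from total RNA after removal of ribosomal RNA, so transcripts with and without a poly(A) tail could both enter them, and their shares were not measured.

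USP9X knockdown left the histone genes without a call. USP9X itself, the gene knocked down, changed by -1.77 ± 0.28 on the log2 scale. It was called with the block (adjusted p = 4.5e-04) but not without it, so a missing call does not show a missing change. In the comparison of esiUSP9X with esiGFP, 0 of the 20 genes were called by limma without a block (0.0247% of all genes) and 0 with it (0.238% of all genes). An unadjusted p under 0.05 was found for 1 histone gene without a block and 3 with it, against 114 and 1321 of all 12169 genes. With either esiGFP library left out, the spread of the blocked fit came entirely from the prior shared by all genes. The shares of all genes called in those fits are not given here. The libraries did not overlap in 2 genes that were higher, HIST1H2BD and HIST1H4H (8.75% of all genes), and in 1 that was lower, HIST2H2BE (7.82% of all genes). The median change of the 20 genes was 0.13, against -0.01 over all genes, and it was -0.14 without esiUSP9X replicate 1.

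HIST1H4H had the largest difference of the 20, with 3.02 and 2.52 FPKM in esiUSP9X and 1.37 and 0.840 FPKM in esiGFP. It was 0.85 ± 0.33 on the log2 scale (adjusted p = 1 without a block and 0.14 with it), and the interval of 95% in the blocked fit ran from 0.46 to 1.24 without adjustment for the number of genes. HIST1H2BC had 9.32 and 5.71 FPKM in esiUSP9X and 6.21 and 3.36 FPKM in esiGFP, with overlap. Its difference was 0.57 ± 0.41 (adjusted p = 1 without a block and 0.12 with it), with a blocked interval from 0.33 to 0.81. The esiFLI1 and esiUSP9X comparisons share the esiGFP libraries, so the values of these 2 genes in both are not independent of each other.

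HIST1H1C had 15.1 and 10.9 FPKM in esiUSP9X and 12.4 and 8.11 FPKM in esiGFP, a difference of 0.32 ± 0.33 (blocked adjusted p = 0.32). HIST1H2BD had 10.5 and 12.2 FPKM in esiUSP9X and 9.0 and 9.98 FPKM in esiGFP, a difference of 0.23 ± 0.21 (blocked adjusted p = 0.63). HIST2H2BE had 1.04 and 0.957 FPKM in esiUSP9X, just under the 1.29 and 1.15 FPKM in esiGFP, a difference of -0.15 ± 0.16 with a blocked interval from -0.43 to 0.12. For HIST1H2BK, with 39.6 and 30.9 FPKM in esiUSP9X and 34.2 and 30.1 FPKM in esiGFP, the blocked interval ran from -0.10 to 0.35 around 0.12. HIST3H2A had 1.49 and 1.18 FPKM in esiUSP9X and 2.69 and 0.729 FPKM in esiGFP, with a blocked interval from -0.62 to 0.39. For HIST2H2BE, HIST1H2BK and HIST3H2A these intervals hold both higher and lower values.

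The direct comparison of the knockdowns tests whether their changes differ. In esiUSP9X against esiFLI1, 1 of 20 histone genes was called without a block (3.08% of all genes): HIST2H2BE, at 1.04 and 0.957 FPKM in esiUSP9X and 3.37 and 2.80 FPKM in esiFLI1. Its difference was -1.03 ± 0.16 (adjusted p = 0.040), the call ended whichever of the 6 libraries was left out (adjusted p from 0.097 to 0.36), and the blocked fit gave an adjusted p of 5.0e-04. With the block, 6 of 20 were called (41.1% of all genes), 2 of them higher in esiUSP9X (20.2% of all genes) and 4 lower (20.9% of all genes). Leaving out a library moved that count in both directions, and the shares of all genes called in those fits are not given here.

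The 4 genes lower in esiUSP9X than in esiFLI1 were HIST2H2BE, HIST1H2BD (-0.67, blocked adjusted p = 0.0077), HIST1H2BC (-0.38, 0.020) and HIST1H2BG (-0.76, 0.029), of which HIST1H2BG had passed the filter only through esiFLI1. Without the genes of a single group 5 of 18 were called, 2 higher and 3 lower. Of all the genes left, 39.7% were called, 20.6% higher and 19.1% lower. The 2 genes higher in esiUSP9X were the H2A genes HIST3H2A (0.82, 0.019) and HIST2H2AC (0.57, 0.044). HIST2H2AC had 3.98 and 1.22 FPKM in esiUSP9X and 1.52 and 0.991 FPKM in esiFLI1, so its groups overlapped. The HIST2H2BE call held in all 9 blocked alternatives, while the others were lost in 1 to 4 of them. HIST1H4H did not differ between the knockdowns by more than its spread (0.05 ± 0.33, blocked interval from -0.34 to 0.44).

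The histone genes also differed by replicate number. The library numbered 1 was above the library numbered 2 in 18 of the 20 genes in esiFLI1, 18 in esiUSP9X and 16 in esiGFP, and in 14 of them in all 3 groups. Over all genes past the filter the shares were 56.0%, 57.4% and 53.9%, and 47.3% for all 3 groups. The median difference between the 2 libraries, on the log2 scale, was 0.34, 0.48 and 0.32 for the histone genes and 0.12, 0.09 and 0.06 for all genes, in the order esiFLI1, esiUSP9X and esiGFP. MIR6723, a microRNA symbol that held the largest share of the FPKM sum, moved with the number too: it took 35.8% and 50.9% of the sum in esiFLI1, 33.2% and 42.6% in esiUSP9X, and 33.9% and 41.8% in esiGFP. Its part in the histone values was not tested, and the labels do not say what the replicate number stands for.

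Most S phase and replication genes were called lower in the esiFLI1 libraries with the block. The shares of histone processing factors and chaperones called in either direction were near the 42.1% of all genes. Their calls were mostly lower, though: 40.9% and 37.0% were called lower, against 21.6% of all genes. Called higher were 0.0% and 3.7%, against 20.6% of all genes. Among 22 genes of histone mRNA synthesis and processing past the filter (23 listed by name), 9 were called lower and 0 higher with the block (40.9% called, against 42.1% of all genes, of which 21.6% lower) and 0 were called without it, and the median change was -0.20. LSM10, a subunit of the U7 particle that trims histone mRNA, had 36.7 and 26.7 FPKM in esiFLI1 and 53.0 and 43.4 FPKM in esiGFP (-0.60, adjusted p = 0.32 without a block and 0.0029 with it). CSTF2, a 3′ end processing factor, had 17.4 and 17.6 FPKM in esiFLI1 and 24.7 and 24.4 FPKM in esiGFP (-0.46, adjusted p = 0.28 and 0.0072). In both the groups did not overlap.

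Among 41 S phase and replication genes, 28 were called lower and 1 (CCNE2, named after its value was seen) higher with the block (70.7% called, against 42.1% of all genes, of which 21.6% lower), with a median of -0.42, and 0 were called without it. CDC25A, a phosphatase that activates CDK2, had 9.58 and 7.82 FPKM in esiFLI1 and 16.8 and 17.6 FPKM in esiGFP (-0.91, adjusted p = 0.094 without a block and 7.0e-04 with it). RRM2, a subunit of ribonucleotide reductase, had 120 and 120 FPKM in esiFLI1 and 167 and 183 FPKM in esiGFP (-0.54, adjusted p = 0.18 and 0.0043). Both lay below esiGFP without overlap. Of 27 histone chaperones, 10 were called lower and 1 (ATRX, also named after its value was seen) higher with the block. That was 40.7% called and 37.0% called lower, against 42.1% and 21.6% of all genes. Without the block 0 chaperones were called, and their median was -0.21.

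SSRP1, a subunit of the FACT complex, had 123 and 107 FPKM in esiFLI1 and 181 and 205 FPKM in esiGFP (-0.74, adjusted p = 0.12 without a block and 0.0022 with it). NPM1, a nucleolar chaperone, had 638 and 665 FPKM in esiFLI1 and 893 and 1190 FPKM in esiGFP (-0.66, adjusted p = 0.20 and 0.0035). The groups did not overlap in either. Replacement histones, which are made outside S phase, were mixed: of 10 past the filter, 2 were called lower with the block (H2AFZ and H2AFY2) and 3 higher (H1F0, H2AFV and H2AFJ), or 5 of 10 against 42.1% of all genes, with a median of -0.13. H2AFZ, the most abundant of them, had 759 and 696 FPKM in esiFLI1 and 1070 and 1110 FPKM in esiGFP (-0.59, adjusted p = 0.14 without a block and 0.0034 with it). H2AFY2, which encodes a macroH2A variant, had 119 and 86.9 FPKM in esiFLI1 and 151 and 156 FPKM in esiGFP (-0.58, adjusted p = 0.32 and 0.0099), also without overlap. The difference between these lists and the histone genes was not tested.

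In esiUSP9X against esiGFP none of the 4 lists had a call in either fit, with medians of -0.02 for histone mRNA synthesis and processing, -0.13 for S phase and replication, -0.04 for chaperones and -0.12 for replacement histones. Of each list the 2 genes with the smallest unadjusted p are given here. PCNA, the sliding clamp of replication, had 319 and 328 FPKM in esiUSP9X and 383 and 460 FPKM in esiGFP (-0.38, blocked adjusted p = 0.27). MCM4, a subunit of the replicative helicase, had 102 and 107 FPKM in esiUSP9X and 121 and 135 FPKM in esiGFP (-0.29, blocked adjusted p = 0.33). Both lay below esiGFP without overlap.

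SLBP, which binds the stem-loop, had 74.3 and 72.8 FPKM in esiUSP9X and 86.9 and 91.2 FPKM in esiGFP (-0.27, blocked adjusted p = 0.36), and SNRPD3, a core protein of small nuclear ribonucleoproteins, differed by -0.16 (0.63). DNAJC9, a co-chaperone of H3 and H4, had 90.3 and 88.0 FPKM in esiUSP9X and 97.1 and 99.6 FPKM in esiGFP (-0.14, blocked adjusted p = 0.66), and NAP1L1, a chaperone of H2A and H2B, differed by -0.21 (0.51). SLBP and DNAJC9 lay below esiGFP without overlap, while SNRPD3 and NAP1L1 overlapped. H1F0, the linker histone of differentiated cells, had 11.4 and 10.7 FPKM in esiUSP9X and 18.0 and 10.7 FPKM in esiGFP (-0.31, blocked adjusted p = 0.52), and H3F3B, which encodes the variant H3.3, differed by -0.27 (0.39). Both overlapped esiGFP, and none of these 8 genes was called.

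**Figure D5:**
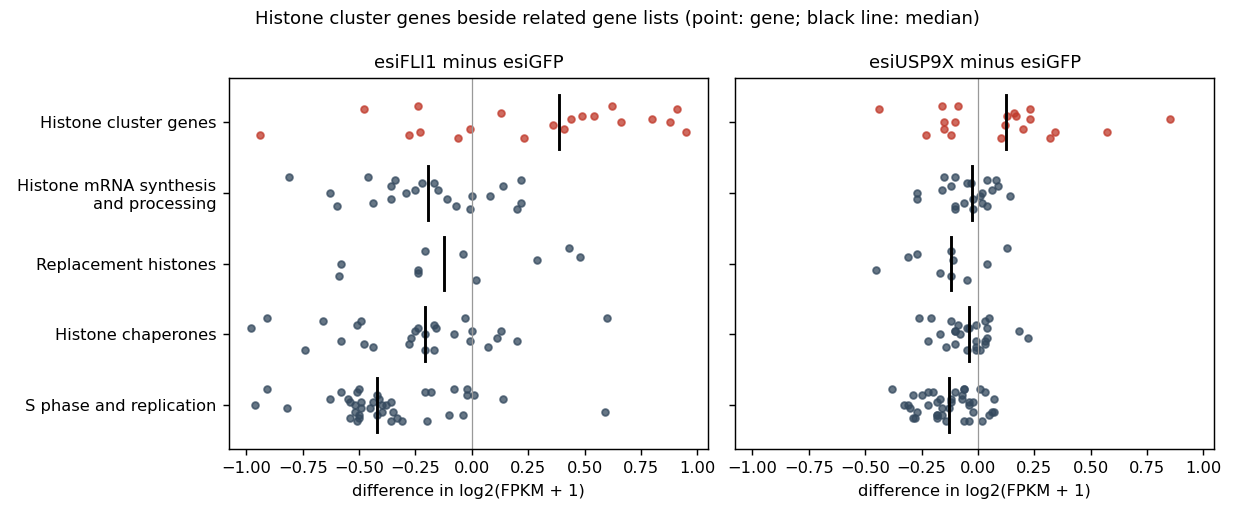
Difference in log2(FPKM + 1) for each gene past the filter (point), for the 20 histone cluster genes in red and 4 related lists in dark grey, esiFLI1 minus esiGFP on the left and esiUSP9X minus esiGFP on the right; the black line is the median. On the left the histone genes have a median of 0.38 and the S phase and replication genes one of -0.42, while on the right the medians run from -0.13 to 0.13.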

How the data were processed

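RNA of 6 A673 libraries (esiFLI1, esiUSP9X and esiGFP, 2 each) was measured. Per the labels' protocols, ribosomal RNA was removed from 2 µg of total RNA, and stranded libraries were read as 75-base single ends. The authors deposited FPKM per gene symbol, and TopHat, Cufflinks, Cuffdiff, hg19 and GRCh37 appear, per the submitters' processing notes, without versions. No source used here says whether counting used the strand, so reads of antisense and overlapping genes cannot be told apart. A stray line (1) was dropped.

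Log2(FPKM + 1) values of the 12169 genes with at least 1 FPKM in 2 libraries were fitted with limma 3.58.1 (R 4.3.3), with 3 group means in 1 model, eBayes with a trend, two-sided tests and Benjamini-Hochberg adjustment at 0.05. This scale understates changes of genes near 1 FPKM. Deviations from the group means correlated between groups at 0.647 (esiFLI1 and esiGFP), 0.644 (esiFLI1 and esiUSP9X) and 0.589 (esiUSP9X and esiGFP), so the pairing by replicate number, which the labels do not explain, was taken from the data and a second fit used it as a block. The code was tested on simulated data. Genes named with all values were the 2 most abundant per family, the 4 with the smallest p per comparison and those called in either fit; of each related list, the 2 with the smallest p against esiGFP in each knockdown. The histone genes and lists were chosen with earlier results of these data known. Promoters were from RefSeq and transcripts from GENCODE v29. Alternatives changed the pseudocount, filter, scaling, block and libraries.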

Additional observations from a re-analysis of the deposited data

How the results depend on the processing

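Without a block, 0 histone genes were called in esiFLI1 or esiUSP9X against esiGFP under any alternative tried; with the replicate block the esiFLI1 count was 9. Leaving out libraries gave 4 to 12 blocked calls in esiFLI1, 0 to 2 in esiUSP9X, and 3 to 9 in esiUSP9X against esiFLI1. The shares of all genes called with a library left out are not given here. In that last comparison the count of 1 was 0 with a pseudocount of 0.1 FPKM, quantile normalization or only the groups compared, and 6 with the replicate block. It was also 0 with a filter of 5 FPKM, but HIST2H2BE, the gene called, had at most 3.37 FPKM and was not tested there.

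The esiFLI1 median of 0.38 was 0.49 with a pseudocount of 0.1 FPKM, -0.01 with no filter, 0.45 with a filter of 5 FPKM, 0.29 without genes that reached 1 FPKM in a single group (chosen after seeing the data) and 0.19 with quantile normalization, and 0.01 to 0.51 leaving out a library. For the H2A genes these were 0.62, -0.08 and, with quantile normalization, 0.16 (0.01 to 0.66 leaving out a library), for the H2B genes 0.67, 0.13 and, with a filter of 5 FPKM, 0.63 (0.22 to 0.53), and for the H4 genes 0.07 with quantile normalization. Leaving out a library gave esiUSP9X medians of -0.14 to 0.31 for all 20 genes, -0.24 to 0.40 for H2A and -0.23 to 0.28 for H2B. The median of esiUSP9X against esiFLI1, -0.18, was -0.34 (pseudocount 0.1), 0.03 (no filter), -0.30 (filter of 5 FPKM), 0.07 (quantile), -0.06 (without genes of a single group) and -0.17 (median-of-ratios scaling), and -0.48 to 0.13 leaving out a library. With no filter, the 39 histone genes that were above 0 but under it also entered the medians. The cause of the shifts was not tested.

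Single changes that turned direction were, in esiFLI1 leaving out a library, HIST1H1C (-0.07 to 0.53), HIST1H2AC (-0.04 to 1.12), HIST1H2AI (-0.03 to 0.92), HIST1H2BH (-0.79 to 0.22), HIST1H2BJ (-0.03 to 0.29), HIST1H2BL (-0.62 to 0.49), HIST1H3H (-0.43 to 0.41) and HIST2H2AC (-0.63 to 0.18). HIST1H2BJ was -0.08 with quantile normalization and HIST1H3H 0.05 with a pseudocount of 0.1 FPKM. In esiUSP9X they were HIST1H2AC (-0.41 to 0.75), HIST1H2AE (-0.09 to 0.49), HIST1H2BG (-0.37 to 0.17), HIST1H2BK (-0.05 to 0.29), HIST1H2BO (-0.27 to 0.54), HIST1H3H (-0.59 to 0.28), HIST1H4E (-0.88 to 0.55), HIST2H2AC (-0.24 to 0.92) and HIST3H2A (-0.66 to 0.43). In esiUSP9X against esiFLI1 it was HIST2H2AC (-0.02 to 1.15). None of these was called without a block. The replacement histone median of -0.13 in esiFLI1 reached 0.11 leaving out a library. Read depth is unknown, which limits the genes near 1 FPKM most.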
